A study of Mus musculus with 8 samples.

Results

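Fibroblast growth factors (FGFs) are secreted signals, and 9 genes that encode them were followed here over 8 mouse arrays: Fgf4 and Fgf5 of the epiblast, Fgf9, Fgf10 and Fgf15 of the eye and hypothalamus, and Fgf3, Fgf8, Fgf17 and Fgf18 of embryonic patterning centres. They were taken by gene name from the array's own annotation, which gave 12 probes on 21 spots, among 34652 gene names in all. On 4 arrays were cells of the male embryonic stem (ES) line K/l-EB5, of 129/Ola background, in which green fluorescent protein (GFP) reports Rax, a homeobox gene of the eye field and hypothalamus. The cultures were turned towards neural fate and given IWR-1-endo, a Wnt inhibitor (Wi), at 5 µM from day 3. After 12 h the cultures received either activin A (10 ng/ml), which signals as Nodal does, or SAG (100 nM), which switches on Hedgehog signalling. At 10 days in vitro the cells of each treatment were sorted by GFP into RAX-positive and RAX-negative cells. The Wi control had the inhibitor without activin or SAG, but it was another male 129/Ola ES line, E14Tg2A, and no sort is named for it. Eye, diencephalon with hypothalamus, and cortex were dissected at E12.5 from 3 Sv129s6 embryos of mixed sex. RNA of 3 sets of experiments was pooled for each array, so every group had 1 array and there was no replicate.

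FGFs bind receptor tyrosine kinases together with heparan sulphate and switch on the Ras and MAP kinase pathway. Cells answer with feedback inhibitors such as the Sprouty, Spred and Dusp6 proteins and with the transcription factors Etv4 and Etv5. In the mouse embryo, FGFs move pluripotent cells out of the naive state, help to divide the optic vesicle into retina and pigment epithelium, shape the pituitary and hypothalamus, and pattern the brain from local centres.

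A level is the log2 of a spot's background-subtracted signal relative to the 75th percentile of its array, so 0 is that percentile. Levels are compared between arrays for 1 probe, not between probes. Of 72 readings (9 ligands on 8 arrays), 55 were well above background, with a reading error of 0.14 to 0.28 log2 (median 0.14, from the Agilent error model). The reading error says nothing of the spread from culture to culture. A ligand was called in a pair of arrays if its levels were at least 1 apart in log2, or 2-fold, and the brighter level was well above background. This is a rule of size with no p-value. A dim level not well above background was raised, where lower, to the dimmest signal that passed on that array. A fold whose dimmer level was raised in this way is printed as at least that size, before reading error. The floor is not a detection limit, since some readings above it did not pass. Fgf4 in RAX-positive cells after SAG was read at -6.00, above the floor of -7.19 there, and its measured level was kept. The same held for Fgf17 there and in eye, and for some readings of Fgf8 probe A_55_P2101506, Fgf1 and Spry4. Folds from such readings are printed as measured and are not bounds, though the dimmer level did not pass. In RNA of whole populations, fewer cells of a type and less RNA per cell cannot be told apart.

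Between 59.5% and 79.3% of an array's spots were well above background. Spots of olfactory and vomeronasal receptor genes, which serve here as a gauge of weak signal, passed as well above background in 42.2% of cases for RAX-positive cells after activin and in 11.3% to 24.2% for the other 7 arrays. Fgf3 and Fgf17 did not exceed the 95th percentile of these receptor genes on any array. Rax stood at 5.45 in RAX-positive and 2.30 in RAX-negative cells after activin, at 5.49 and 3.08 in the same order after SAG, at -4.07 in the Wi control, and at 4.53 in eye, 3.14 in diencephalon/hypothalamus and -3.32 in cortex. The tissues carried their defining markers: Cryaa of the lens reached 8.08 in eye, Nkx2-1 3.09 in diencephalon/hypothalamus, and Emx1 2.75 in cortex. All 3 tissues also carried embryonic globin RNA, with Hbb-bh1 at 7.76 in eye, 6.67 in diencephalon/hypothalamus and 7.67 in cortex and between -5.16 and -2.98 in the cultures. On slide 1, column 1 held the RAX-positive arrays of both treatments and column 2 the RAX-negative ones, so gate and column cannot be told apart. Eye and diencephalon/hypothalamus also lay in column 1 and cortex in column 2, so tissue and column cannot be told apart in pairs with cortex. Spots well above background made up 59.5% to 66.4% on the column 2 arrays and 70.5% to 79.3% on those of column 1. Both activin arrays lay in row 1 and both SAG arrays in row 2, so the added factor and the row cannot be told apart. The Wi control alone was on slide 2. Another scaling shifted the median difference of all genes by over 0.1 in several pairs, for example to -0.19 with median scaling beside 0.11 here for RAX-positive over RAX-negative cells after activin, and to -0.40 beside 0.02 for eye over cortex.

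The probes are 60 bases long, and the sequences of 2 are shown, that of Fgf3 as a weakly read ligand and that of the middle Fgf8 probe, which is set beside the other Fgf8 probes below. Positions are those of the files on mm9, and no letter is capitalised.
Fgf3 A_51_P205028: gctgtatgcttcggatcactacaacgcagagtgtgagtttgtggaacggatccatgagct
Fgf8 A_55_P2108109: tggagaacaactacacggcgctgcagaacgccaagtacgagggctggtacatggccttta
The Fgf3 probe covers chr7:152026667-152028526 on the plus strand, a span of 1860 bases for a probe of 60. The Fgf8 probe lies at chr19:45811668-45811727 on the minus strand. Fgf4 was read at chr7:152051089-152051148 and Fgf15 at chr7:152086371-152086430, so the probes of Fgf3, Fgf4 and Fgf15 lie in 1 stretch of chromosome 7, with gaps of 22.56 kb and 35.22 kb. Fgf5 was read at chr5:98705980-98706039, Fgf9 at chr14:58728897-58728956 and Fgf10 at chr13:119580365-119580424. Fgf18 was read by probes at chr11:33017440-33017499 and chr11:33017474-33017533, which overlap by 26 bases.

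Promoters of 6 ligands (Fgf3, Fgf4, Fgf5, Fgf9, Fgf10 and Fgf18) were in the RefSeq table on GRCm38, and Fgf8, Fgf15 and Fgf17 were not matched. The 250 bases before the gene start are printed for the epiblast ligands Fgf4 and Fgf5 and the eye and hypothalamic ligands Fgf9 and Fgf10, the 2 pairs with opposite gate differences after activin (below). Capitals mark the GC box GGGCGG on either strand.
Fgf4: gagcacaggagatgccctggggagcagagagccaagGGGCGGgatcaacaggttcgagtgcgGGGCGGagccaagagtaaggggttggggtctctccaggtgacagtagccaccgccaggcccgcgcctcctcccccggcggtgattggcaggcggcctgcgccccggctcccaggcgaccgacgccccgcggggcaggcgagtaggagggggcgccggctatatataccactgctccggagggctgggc
Fgf5: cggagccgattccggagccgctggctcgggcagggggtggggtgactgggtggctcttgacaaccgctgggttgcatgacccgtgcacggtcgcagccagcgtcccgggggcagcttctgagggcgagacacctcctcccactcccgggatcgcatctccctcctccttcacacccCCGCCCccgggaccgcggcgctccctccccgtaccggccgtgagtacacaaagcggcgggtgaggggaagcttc
Fgf9: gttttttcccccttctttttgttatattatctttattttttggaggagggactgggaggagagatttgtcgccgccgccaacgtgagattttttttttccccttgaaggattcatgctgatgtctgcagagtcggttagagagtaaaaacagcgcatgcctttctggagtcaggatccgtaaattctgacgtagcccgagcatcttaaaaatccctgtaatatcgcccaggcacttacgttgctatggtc
Fgf10: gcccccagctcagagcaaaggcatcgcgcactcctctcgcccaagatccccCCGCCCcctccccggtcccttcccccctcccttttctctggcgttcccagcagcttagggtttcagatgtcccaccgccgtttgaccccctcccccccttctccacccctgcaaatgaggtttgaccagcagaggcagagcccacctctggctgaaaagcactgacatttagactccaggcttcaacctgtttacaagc
They lie at chr7:144861136-144861385, chr5:98253934-98254183, chr14:58072436-58072685 and chr13:118714449-118714698, all on the plus strand. Their G and C content was 71.2% for Fgf4, 70.8% for Fgf5, 44.8% for Fgf9 and 61.2% for Fgf10, beside a median of 52.4% over 32851 promoters of the same length. The GC box was found in 4 of 6 ligand promoters (Fgf4, Fgf5, Fgf10 and Fgf18) and in 32.7% of all promoters. On either strand, the homeodomain core TAATTA is in 4.84% of all promoters, the POU octamer ATGCAAAT in 1.60% and the TATA box TATAAA in 12.4%, and these letters were in 0 of the 6 windows. Only the GC box was found in the ligand windows, so motifs did not overlap there.

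**Figure D1:**
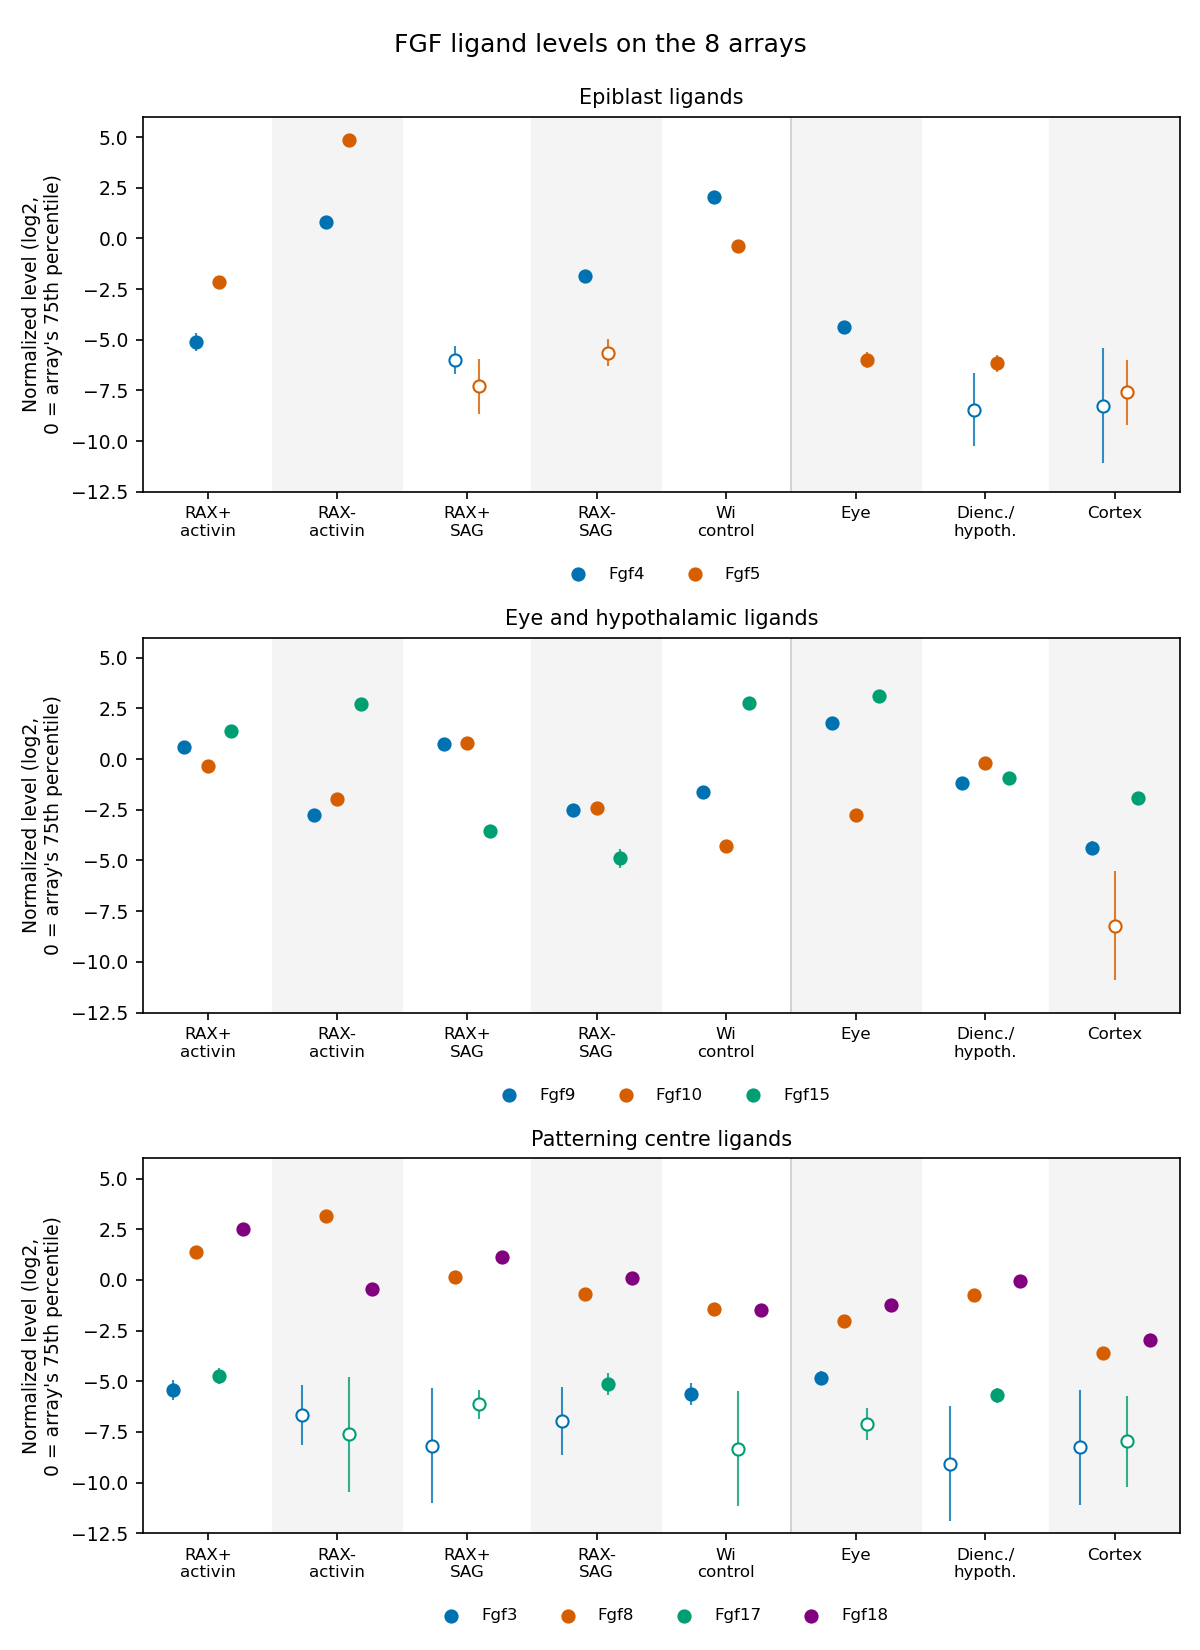
Normalized level (log2, 0 at the array's 75th percentile) of each ligand on the 8 arrays, in panels by role. Points are single arrays, bars are 1.96 times the reading error, and hollow points were not well above background. Fgf5 peaks in RAX-negative cells after activin at 4.87, Fgf4 in the Wi control at 2.04, and Fgf9 and Fgf15 in eye at 1.77 and 3.14. Levels of different genes come from different probes and are not to be set against each other.

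The epiblast ligands were brightest in RAX-negative cells after activin and in the Wi control, and lower on every other array. Fgf4, which ES cells secrete and which helps them leave the naive state, stood at -5.13 in RAX-positive and 0.81 in RAX-negative cells after activin, at -6.00 and -1.86 in the same order after SAG, and at 2.04 in the Wi control. In the embryo it stood at -4.38 in eye, -8.44 in diencephalon/hypothalamus and -8.26 in cortex. The readings of RAX-positive cells after SAG, diencephalon/hypothalamus and cortex were not well above background, and the other 5 differed from their neighbours in the order by more than the reading error.

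Fgf5, a marker of the primed epiblast, stood at -2.13 in RAX-positive and 4.87 in RAX-negative cells after activin, at -7.30 and -5.63 in the same order after SAG, and at -0.40 in the Wi control. Its tissue levels were -5.99 in eye, -6.15 in diencephalon/hypothalamus and -7.59 in cortex. Both SAG readings and that of cortex were not well above background, and eye and diencephalon/hypothalamus did not differ beyond the reading error. The RAX-negative cells after activin lay 5.27 log2 above the next array, the Wi control.

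All 8 pluripotency markers fixed for this work were well above background on each of the 5 culture arrays and also in eye. In diencephalon/hypothalamus 7 passed and in cortex 5. Their summed signal, in percent of the array's 75th percentile, was 524 in RAX-positive and 5138 in RAX-negative cells after activin, 549 and 709 in the same order after SAG, and 14662 in the Wi control. In the tissues the sum was 228 to 339. List medians were -2.03 in RAX-positive and 1.69 in RAX-negative cells after activin, -2.33 and -0.71 after SAG, and 1.81 in the Wi control. Dppa5a alone stood at 6.85 in the Wi control, and Pou5f1 was higher in RAX-negative cells after activin (3.86) than there (1.80). Of the 8 markers, 5 were lower and 0 higher in RAX-positive than in RAX-negative cells after activin. Others went another way: Nanog was lowest of all arrays in RAX-negative cells after activin (-2.21, beside -0.73 in eye). Tdgf1 was highest in RAX-positive cells after SAG (1.30), and Klf4 was lowest in the Wi control (0.04). The part of pluripotent cells in the levels of Fgf4 and Fgf5 was not tested. Mesoderm and endoderm markers summed to 159 in RAX-positive and 2131 in RAX-negative cells after activin, to 75.9 and 988 after SAG and to 818 in the Wi control. In RAX-negative cells after SAG, Foxa2 alone stood at 3.24, while the list median was -4.86 with 5 of 8 markers well above background. The part of these markers was likewise not tested.

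Fgf9 was bright in both RAX-positive populations and in eye. This ligand of the distal optic vesicle, which favours retina over pigment epithelium in mouse, stood at 0.59 in RAX-positive and -2.73 in RAX-negative cells after activin. After SAG it stood at 0.77 in RAX-positive and -2.51 in RAX-negative cells. It was at -1.64 in the Wi control, 1.77 in eye, -1.18 in diencephalon/hypothalamus and -4.36 in cortex, all well above background. The levels of RAX-positive cells did not differ between activin and SAG beyond the reading error, nor did those of RAX-negative cells.

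Fgf10 was bright in RAX-positive cells and in diencephalon/hypothalamus. This ligand of the hypothalamic infundibulum, needed for pituitary growth in mouse, stood at -0.36 in RAX-positive and -1.96 in RAX-negative cells after activin, and at 0.78 and -2.43 in the same order after SAG. It was at -4.30 in the Wi control, -2.77 in eye, -0.20 in diencephalon/hypothalamus and -8.22 in cortex, the last not well above background. Diencephalon/hypothalamus did not differ from RAX-positive cells after activin beyond the reading error, nor RAX-negative cells after SAG from eye. The probe was spotted 10 times, and its spots had a standard deviation of 0.029 to 0.330 log2 across the arrays.

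Fgf15, the mouse counterpart of human FGF19 and a gene of retinal and diencephalic progenitors, separated the SAG arrays from the other 6. It stood at 1.41 in RAX-positive and 2.72 in RAX-negative cells after activin, at -3.54 and -4.90 in the same order after SAG, and at 2.77 in the Wi control. Its tissue levels were 3.14 in eye, -0.92 in diencephalon/hypothalamus and -1.90 in cortex. Eye did not differ from the Wi control beyond the reading error, nor did the Wi control from RAX-negative cells after activin. This holds for these neighbours in the order only, not for eye against RAX-negative cells after activin. In RAX-negative cells after SAG it was well above background but under the 95th percentile of the receptor genes.

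Among the patterning centre ligands, Fgf8 was brightest in RAX-negative cells after activin and Fgf18 in RAX-positive cells after activin. Fgf8, the ligand of the anterior neural ridge and the isthmus, stood at 1.39 in RAX-positive and 3.15 in RAX-negative cells after activin, at 0.15 and -0.69 in the same order after SAG, and at -1.41 in the Wi control. Its tissue levels were -2.00 in eye, -0.74 in diencephalon/hypothalamus and -3.59 in cortex. RAX-negative cells after SAG did not differ from diencephalon/hypothalamus beyond the reading error.

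Fgf18, a close relative of Fgf8 that also acts in bone and lung, stood at 2.53 in RAX-positive and -0.43 in RAX-negative cells after activin, at 1.14 and 0.10 in the same order after SAG, and at -1.50 in the Wi control. It was at -1.24 in eye, -0.04 in diencephalon/hypothalamus and -2.96 in cortex. RAX-negative cells of both treatments and diencephalon/hypothalamus formed a run without differences between neighbours beyond the reading error, and so did eye and the Wi control.

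Fgf17, of the Fgf8 subfamily and active at the midbrain-hindbrain border and in the frontal forebrain, was well above background on 3 arrays. These were RAX-positive cells after activin at -4.75, RAX-negative cells after SAG at -5.14 and diencephalon/hypothalamus at -5.69, with no difference between neighbours beyond the reading error. Fgf3, a ligand of ear induction and the hindbrain, was well above background in RAX-positive cells after activin at -5.44, in the Wi control at -5.64 and in eye at -4.82, and the first 2 did not differ beyond the reading error. On the other arrays these ligands stood at -8.33 to -6.14 (Fgf17) and -9.08 to -6.67 (Fgf3). Every reading of either gene lay at or below the 95th percentile of the receptor genes, so their calls below rest on weak signal. The same held for Fgf4 in RAX-positive cells after activin, Fgf5 in eye and diencephalon/hypothalamus, and Fgf10 in the Wi control.

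The probes of Fgf8 did not all give 1 picture. The probe that reads the gene, A_55_P2101508, and A_55_P2108109, 253 bases away, had a Pearson correlation of 0.985 over the 8 arrays. A_55_P2101506, 5.44 kb from the first, had correlations of 0.355 and 0.236 with them. It did not exceed the 95th percentile of the receptor genes on any of the 8 arrays (-4.67 in cortex). In RAX-positive cells after SAG, the Wi control and diencephalon/hypothalamus it was not well above background. Its order of arrays and its calls thus rest on weak signal. A_55_P2101506 stood at -4.50 in RAX-positive and -4.68 in RAX-negative cells after activin, at -6.42 and -5.36 after SAG, and at -7.92 in the Wi control. It was at -6.58 in eye, -7.07 in diencephalon/hypothalamus and -4.82 in cortex, so that cortex, lowest by the other probes, was above both other tissues. It was 3.40-fold lower in eye than in cortex, where A_55_P2101508 was 2.99-fold higher and A_55_P2108109 at least 3.82-fold higher. The 2 Fgf18 probes, which overlap by 26 bases, had a correlation of 0.996. These correlations describe 8 arrays that differ in treatment, tissue and brightness.

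**Figure D2:**
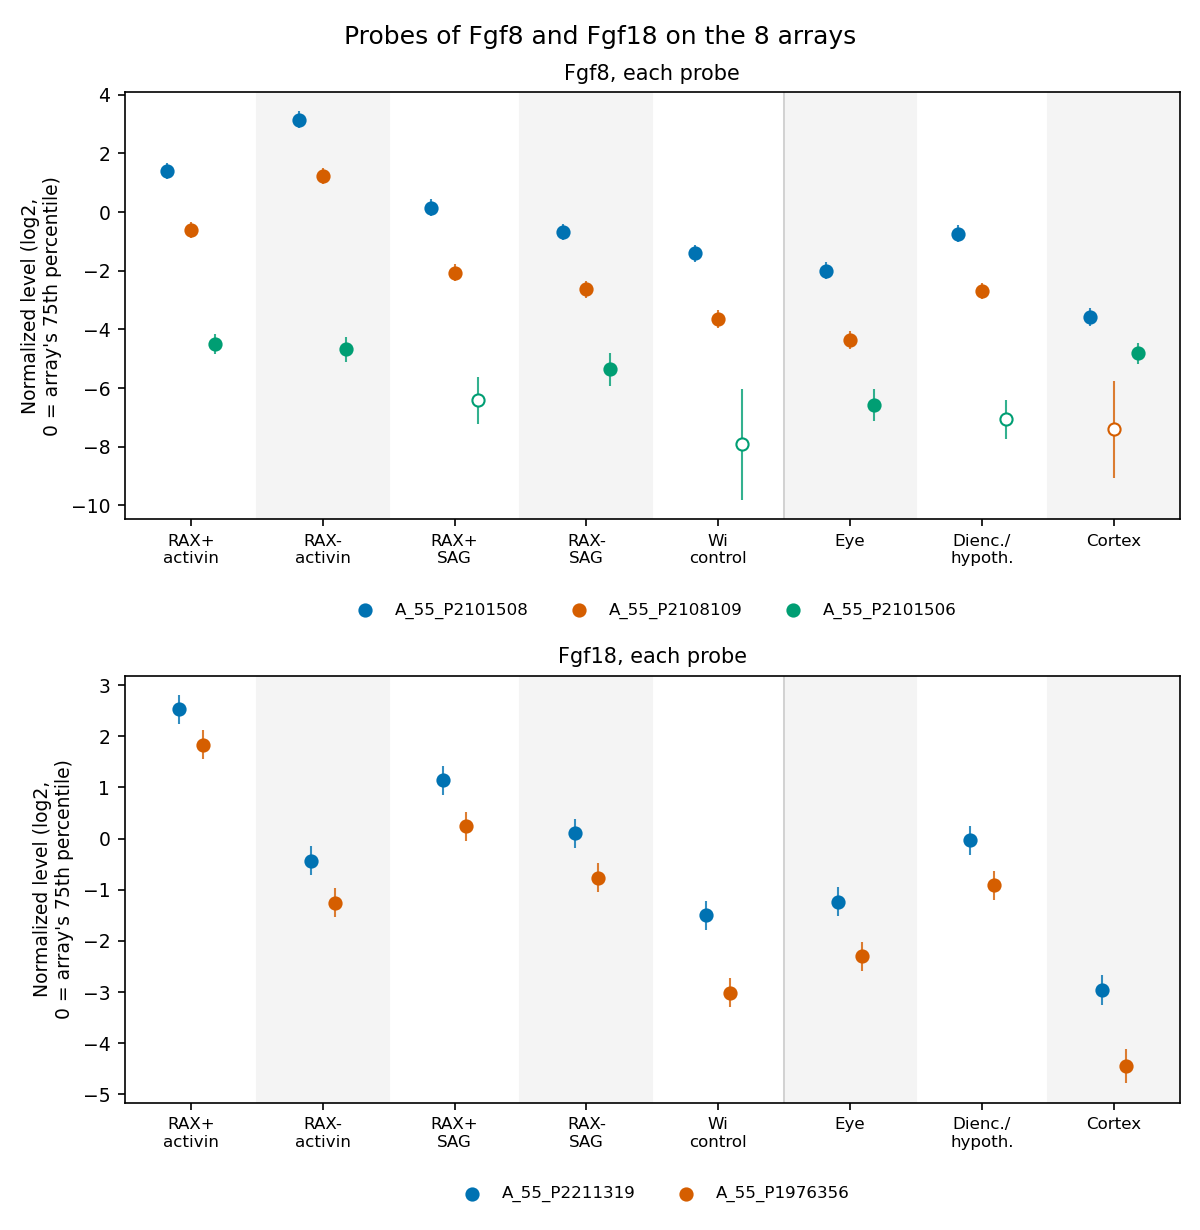
Normalized level (log2, 0 at the array's 75th percentile) of each probe of Fgf8 and Fgf18 on the 8 arrays. Points are single arrays, bars are 1.96 times the reading error, and hollow points were not well above background. Fgf8 probe A_55_P2101506 stands at -4.82 in cortex, above eye and diencephalon/hypothalamus, while A_55_P2101508 has its lowest level there, -3.59.

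RAX-positive cells after activin had more Fgf9, Fgf10 and Fgf18 and less Fgf4, Fgf5, Fgf8 and Fgf15 RNA than the RAX-negative cells. By the rule of size 3 of 9 detected ligands were higher and 4 lower, against 10.3% higher and 6.17% lower of all 28934 detected genes. The median ligand difference was 0.17 and that of all genes 0.11. Fgf9 was 10.0-fold, Fgf18 7.78-fold and Fgf10 3.05-fold higher. Fgf5 was 128-fold, Fgf4 61.6-fold, Fgf8 3.37-fold and Fgf15 2.48-fold lower. Fgf8 probe A_55_P2101506 differed by 0.18 and was not called. Fgf3 and Fgf17 were not well above background in the RAX-negative cells and were not called. The split of all called genes moved with the scaling, with 62.5% of them higher here and 31.6% to 44.1% under 4 other scalings.

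After SAG, RAX-positive cells again had more Fgf9, Fgf10 and Fgf18 and less Fgf4 RNA than RAX-negative cells. Of 7 detected ligands 4 were higher and 2 lower, against 4.42% higher and 10.4% lower of all 26613 detected genes, and the ligand median was 1.04 beside 0.04. Fgf9 was 9.68-fold, Fgf10 9.27-fold, Fgf15 2.57-fold and Fgf18 2.06-fold higher. Fgf4 was at least 17.6-fold lower and Fgf17 at least 2.01-fold lower. Fgf8 differed by 0.83 ± 0.20 (reading error) and was not called, while its probe A_55_P2101506 was 2.07-fold lower, on weak signal. With normexp background correction the Fgf15 difference was 0.20 and not called. Of all called genes 29.9% were higher, and 26.8% to 40.8% under the other scalings. Mesenchyme markers moved with the gate in both treatments, their summed signal being 86.9 in RAX-positive and 942 in RAX-negative cells after activin and 26.3 and 1025 after SAG. Their part in the ligand differences was not tested.

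The 2 gate comparisons use different arrays, and Fgf9 differed by 3.33 ± 0.21 after activin and by 3.28 ± 0.21 after SAG (reading errors). Fgf10 differed by 1.61 ± 0.21 and 3.21 ± 0.21, and Fgf18 by 2.96 ± 0.20 and 1.04 ± 0.20. Fgf15 took opposite signs, -1.31 ± 0.20 after activin and 1.36 ± 0.29 after SAG. Whether any of these effects differs between the treatments was not tested, since there is 1 array a group.

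Activin cultures held more Fgf15, Fgf5 and Fgf8 RNA than SAG cultures in both gates. In RAX-positive cells 6 of 9 detected ligands were higher and 1 lower, against 17.6% higher and 6.72% lower of 29090 detected genes, with a ligand median of 1.38 beside 0.24. Fgf5 was at least 33.3-fold, Fgf15 30.9-fold, Fgf18 2.61-fold and Fgf8 2.37-fold higher, and Fgf10 was 2.19-fold lower. Fgf3 was at least 3.36-fold and Fgf17 2.64-fold higher, from readings at the level of weak receptor signal on the array with the most such signal. With the authors' values Fgf17 differed by 0.48 and was not called. Fgf9 differed by -0.17 ± 0.20 (95% reading interval -0.57 to 0.23). Of all called genes 72.4% were higher, and 43.1% to 61.9% under the other scalings.

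In RAX-negative cells activin over SAG gave 4 higher and 0 lower of 8 detected ligands, against 12.7% higher and 15.1% lower of 25532 detected genes, with a ligand median of 1.57 beside 0.04. Fgf5 was at least 1439-fold, Fgf15 196-fold, Fgf8 14.2-fold and Fgf4 6.38-fold higher. Fgf10 and Fgf18 differed by 0.47 ± 0.21 and -0.53 ± 0.20 and Fgf9 by -0.22 ± 0.21 (reading errors), all under the size called. The Fgf8 probe A_55_P2101506 differed by 0.68 and was not called, but it was 3.76-fold higher with activin in RAX-positive cells. The share of higher genes among all calls was 45.8%, and 39.5% to 70.0% under the other scalings. The pluripotency list had 6 higher and 0 lower of 8 detected genes in this pair, and its part was not tested. The 4 sorted arrays serve in both the gate and the treatment comparisons, so these are not separate measurements.

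**Figure D3:**
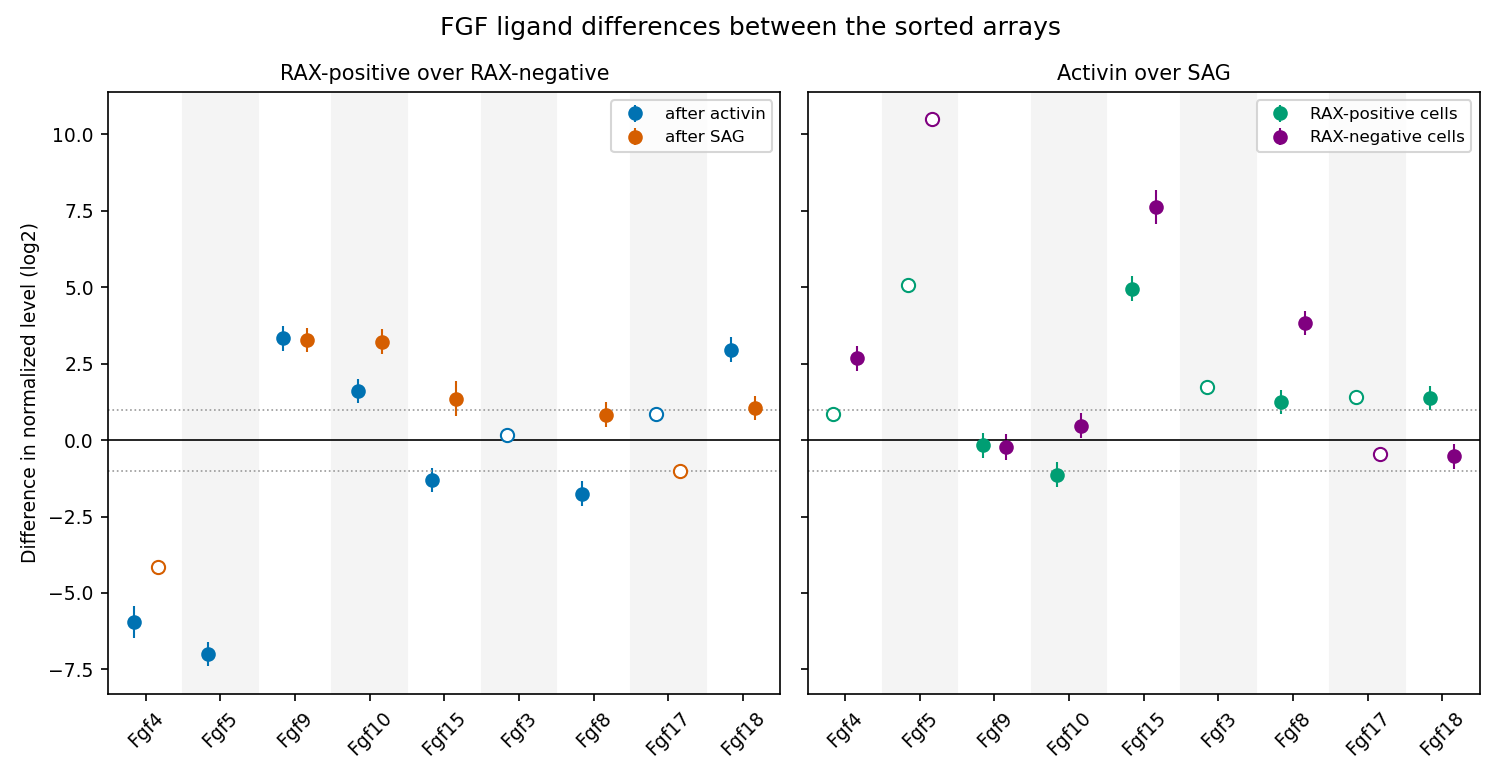
Log2 differences in normalized level of the 9 ligands, RAX-positive over RAX-negative on the left and activin over SAG on the right. Filled points carry bars of 1.96 times the reading error, and hollow points have the dimmer level not well above background. Dotted lines mark a difference of 1, and ligands not detected in a pair have no point. Fgf9 lies near 3.3 for both gate differences, and Fgf15 lies below 0 after activin and above 0 after SAG.

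A limma fit of gate and added factor on the 4 sorted arrays had 1 residual degree of freedom. Its error is the difference between the gate effects of the 2 treatments, and its p-values do not measure the spread from culture to culture. At an adjusted p under 0.05 it called 0 of 26483 genes (0%) for the gate and 0 of 26483 (0%) for the added factor. At an unadjusted p under 0.05 there were 1118 higher and 867 lower genes for the gate, and 1910 and 1669 for the factor. Fgf9 was 3.30 log2 higher in RAX-positive cells (SE 0.29, limma adjusted p = 0.482), higher in 2 of 2 treatments, and Fgf4 differed by -5.04, lower in 2 of 2 (SE 0.58, limma adjusted p = 0.482). Over 8 other settings the adjusted p ran from 2.35e-06 to 0.74 for Fgf9 and from 2.7e-12 to 0.74 for Fgf4, and passed in 3 settings for either. For activin over SAG, Fgf15 was 6.28 higher (SE 0.80, limma adjusted p = 0.325, 3.35e-19 to 0.544 elsewhere) and Fgf5 7.84 higher (SE 1.51, limma adjusted p = 0.332, 4.98e-30 to 0.544 elsewhere), each in 2 of 2 gates. The fit used measured levels with no floor, so its values for Fgf5 and Fgf4 include SAG readings that were not well above background and are not bounds. Fgf8 was 2.54 higher (SE 0.77, limma adjusted p = 0.36, 9.74e-05 to 0.551 elsewhere). The gate differences of Fgf15 (0.02) and Fgf8 (-0.46) were averages over opposite signs. Fgf3 did not pass the filter of well above background on at least 2 of the 4 arrays and was not tested.

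Against the Wi control, Fgf10 and Fgf18 were higher in all 4 sorted populations and Fgf4 was lower in all 4. These comparisons share 1 control array, of another cell line on another slide, and cell line, slide, sort and treatment cannot be told apart. RAX-positive cells after activin had 5 of 9 detected ligands higher and 3 lower, against 28.9% higher and 14% lower of all detected genes. Fgf18 was 16.3-fold, Fgf10 15.4-fold, Fgf8 6.99-fold, Fgf17 at least 5.05-fold and Fgf9 4.71-fold higher, while Fgf4 was 145-fold, Fgf5 3.31-fold and Fgf15 2.57-fold lower. RAX-negative cells after activin had 4 of 8 higher and 2 lower, against 18.1% and 17.5%. Fgf5 was 38.5-fold, Fgf8 23.6-fold, Fgf10 5.06-fold and Fgf18 2.09-fold higher, Fgf4 2.35-fold and Fgf9 2.13-fold lower, and Fgf15 differed by -0.05 ± 0.20 (95% reading interval -0.45 to 0.35).

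RAX-positive cells after SAG had 4 of 8 ligands higher and 4 lower than the Wi control, against 21.0% and 19.2% of all detected genes. Fgf10 was 33.9-fold, Fgf18 6.24-fold, Fgf9 5.31-fold and Fgf8 2.95-fold higher. Fgf4 was 263-fold, Fgf5 at least 110-fold, Fgf15 79.3-fold and Fgf3 at least 2.93-fold lower. RAX-negative cells after SAG had 3 of 9 higher and 3 lower, against 17.2% and 14.5%. Fgf17 was at least 3.84-fold, Fgf10 3.65-fold and Fgf18 3.03-fold higher, while Fgf15 was 203-fold, Fgf5 at least 37.3-fold and Fgf4 15.0-fold lower. Among all called genes, the higher share was 67.4% for RAX-positive and 50.9% for RAX-negative cells after activin and 54.2% for RAX-negative cells after SAG. Under the other scalings it was 45.3% to 58.1%, 47.4% to 62.2% and 40.3% to 50.6% in that order. Markers of telencephalon summed to 388 to 3611 in the sorted cells and to 9559 in the Wi control, and their part was not tested.

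In the embryo, eye had more of 7 ligands than cortex and less of none. The 7 came from 8 detected ligands, against 13.0% higher and 7.32% lower of 27368 detected genes, with a ligand median of 1.82 beside 0.02. Fgf9 was 70.0-fold, Fgf15 32.7-fold, Fgf18 3.31-fold and Fgf8 2.99-fold higher in eye. Fgf10 was at least 11.5-fold, Fgf4 at least 3.75-fold and Fgf3 at least 2.77-fold higher. The Fgf8 call was lost with the authors' values (0.90) and with the mean of its probes (0.95), a setting that counts A_55_P2101506. Lens markers summed to 33832 in eye and 36.5 in cortex, pigment epithelium markers to 12102 and 1629, and mesenchyme markers to 4832 and 3131. In cortex Dct alone stood at 3.98, while the median of the pigment epithelium list was -4.81. The part of these lists was not tested. Of all called genes 63.9% were higher, and 26.4% to 60.5% under the other scalings.

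Diencephalon/hypothalamus over cortex gave 4 higher and 0 lower of 7 detected ligands, against 10.7% and 8.59% of 26519 detected genes, with a ligand median of 2.85 beside -0.05. Fgf10 was at least 68.2-fold, Fgf9 9.03-fold, Fgf18 7.60-fold and Fgf8 7.19-fold higher, but Fgf8 probe A_55_P2101506 was 4.76-fold lower, on weak signal. Fgf15 differed by 0.97 ± 0.20 (reading error) and was not called. Eye over diencephalon/hypothalamus divided the ligands, with 4 higher and 4 lower of 9, against 11.4% and 8.04% of 27945 detected genes. Fgf15 was 16.7-fold, Fgf4 at least 8.47-fold, Fgf9 7.75-fold and Fgf3 at least 6.27-fold higher in eye. Fgf10 was 5.94-fold, Fgf17 2.68-fold, Fgf8 2.40-fold and Fgf18 2.30-fold lower. With normexp correction Fgf4 (0.96) and Fgf17 (-0.11) were not called. Between eye and diencephalon/hypothalamus all 6 lens and all 5 pigment epithelium markers were higher (medians 8.10 and 8.34) and all 6 neuron markers lower (median -3.35), and their part was not tested. Between diencephalon/hypothalamus and cortex 5 of 6 telencephalon markers were lower and 4 of 6 neuron markers higher, and their part was not tested either. The 3 tissue pairs share their arrays, and in the pairs with cortex tissue and slide column cannot be told apart. Of all called genes 55.4% were higher for diencephalon/hypothalamus over cortex (28.6% to 54.8% under the other scalings) and 58.7% for eye over diencephalon/hypothalamus (47.9% to 52.2%).

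Sorted cells were also set beside the tissue nearest to their treatment. RAX-positive cells after activin had 5 ligands higher and 2 lower than eye, of 9 detected, against 22.6% and 10.0% of 29850 detected genes. Fgf5 was 14.5-fold, Fgf18 13.6-fold, Fgf8 10.5-fold, Fgf10 5.32-fold and Fgf17 5.18-fold higher, and Fgf15 3.31-fold and Fgf9 2.26-fold lower. With the authors' values Fgf17 differed by 0.59 and was not called. In this pair all 6 lens, all 5 pigment epithelium and all 6 mesenchyme markers were lower (medians -5.93, -7.40 and -5.96). RAX-positive cells after SAG had 2 ligands higher and 2 lower than diencephalon/hypothalamus, of 7 detected, against 19.4% and 12.5% of 27373 detected genes. Fgf9 was 3.87-fold and Fgf18 2.27-fold higher, Fgf15 6.13-fold and Fgf5 at least 2.04-fold lower, and Fgf10 differed by 0.97 ± 0.20 (reading error). Here all 6 mesenchyme markers (median -7.29) and 4 of 6 neuron markers (list median -1.76) were lower. Blood markers were lower for 3 of 4 in either pair, and the part of these lists was not tested. The higher share of all calls was 69.3% (47.4% to 65.7% under the other scalings) in the first pair and 60.7% (44.0% to 69.4%) in the second.

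The FGF receptors were read throughout. All 5 receptor genes on the list, including Fgfrl1, which lacks the kinase, were well above background on every array. For activin over SAG 1 of 5 was lower and 0 higher in either gate, against 6.72% lower of all detected genes in RAX-positive and 15.1% in RAX-negative cells. This was Fgfr3, 2.63-fold lower in RAX-positive and 7.33-fold lower in RAX-negative cells. Between the gates 0 of 5 were called after activin (10.3% higher and 6.17% lower of all genes), and after SAG 1 was higher (4.42% of all genes), Fgfr1 at 2.01-fold higher, a call kept under 2 of 4 other scalings. Fgfr3 was also 13.6-fold lower and Fgfr4 9.96-fold higher in eye than in cortex. Of the klotho co-receptors, which bind endocrine FGFs, 0 of 1 detected was called between sorted arrays.

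Many feedback and target genes had more RNA in activin than in SAG cultures in both gates. In RAX-positive cells 8 of 12 were higher and 0 lower, against 17.6% and 6.72% of all detected genes, with a median of 1.51 beside 0.24 for all genes. In RAX-negative cells 7 of 11 detected were higher and 0 lower, against 12.7% and 15.1%, with a median of 1.67 beside 0.04. In RAX-positive cells the feedback inhibitor gene Spry1 was 5.39-fold and the transcription factor gene Etv5 5.27-fold higher. The membrane inhibitor gene Il17rd was 3.60-fold and the Sprouty gene Spry4 3.43-fold higher there. In RAX-negative cells Etv5 was 9.73-fold, Il17rd 7.00-fold, Spry4 at least 3.89-fold and Spry2 3.67-fold higher. Over 4 other scalings the Spry4 difference was 0.04 to 1.73 log2 in RAX-positive cells, with the call kept in 2, and 0.26 to 2.53 in RAX-negative cells, with the call kept in 3. With normexp correction 6 were higher in each gate, and with quantile scaling 1 of 12 was lower in RAX-positive cells. In RAX-positive cells after activin, Spry1 and Il17rd differed from the Wi control by 2.22 and 2.73 log2, and Etv5 and Spry4 by -1.09 and -1.95. In RAX-positive cells after SAG, Etv5 and Spry4 differed from it by -3.49 and -3.72, Spry4 not being well above background there. Between the gates 1 feedback or target gene was higher and 2 lower of 11 after activin, against 10.3% and 6.17% of all detected genes, and 0 higher and 1 lower of 11 after SAG, against 4.42% and 10.4%. Neuron markers were lower with activin, summing to 2092 against 5887 with SAG in RAX-positive cells and to 5098 against 13983 in RAX-negative cells, and their part was not tested.

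Of 9 other secreted ligands, activin over SAG gave 2 higher and 2 lower of 7 detected in RAX-positive cells and 1 higher and 1 lower of 5 in RAX-negative cells. Of all detected genes 17.6% were higher and 6.72% lower in the first pair, and 12.7% and 15.1% in the second, which also applies to the intracellular factors below. The largest was Fgf1, a ligand without a signal peptide, 2.99-fold higher in RAX-positive and at least 9.19-fold higher in RAX-negative cells. With other scalings its differences were 0.41 to 1.43 log2, with the call kept in 2 of 3, and 0.82 to 3.76, with the call kept in 3 of 4. The intracellular FGF homologous factors, which bind sodium channels and not receptors, went the other way, with 2 of 4 lower in RAX-positive and 3 of 4 in RAX-negative cells and 0 higher in either. Fgf11 was 3.86-fold and 9.54-fold lower, and Fgf12 2.37-fold and 5.33-fold lower, the call in RAX-positive cells being kept in 3 of 4 other scalings.

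**Figure D4:**
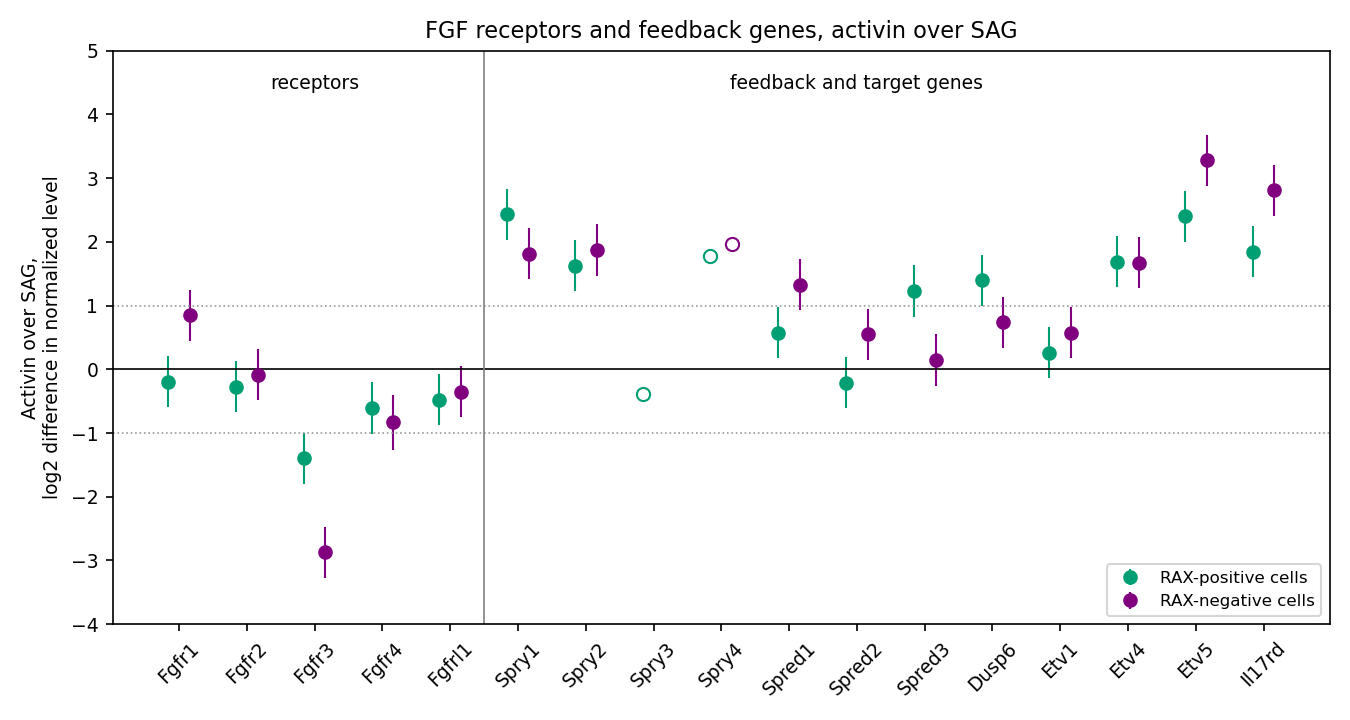
Activin over SAG, log2 difference in normalized level, for 5 receptor and 12 feedback and target genes in RAX-positive and RAX-negative cells. Filled points carry bars of 1.96 times the reading error, and hollow points have the dimmer level not well above background. Dotted lines mark a difference of 1, and a gene not detected in a pair has no point. Feedback genes lie mostly above 1 (8 of 12 in RAX-positive and 7 of 11 in RAX-negative cells), and Fgfr3 lies below -1 in both.

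Genes with patterns most like a ligand were taken by Pearson correlation of levels over the 8 arrays, among 10670 genes that passed as well above background on 4 or more arrays and spanned a range of at least 2. Fgf4 was followed by the pluripotency gene Zfp42 (0.984) and by Upp1 (0.969), and Fgf5 by Abcb1b (0.988), Foxh1 (0.987) and Ccnb1ip1 (0.986). Fgf9 was nearest to Fcor (0.950), Fgf10 to Catsperg2 (0.949) and Ngb (0.947) among named genes, and Fgf15 to Gstt2 (0.988), Aass (0.977) and Kcnk1 (0.974). For Fgf8 they were Lor (0.973), Tmprss12 (0.972) and Dmc1 (0.960), and for Fgf18 Spata31d1d (0.960). Probes without a gene symbol made up the rest, and Fgf3 and Fgf17 did not meet the limits. The points share their scaling, and 7 of the 8 share a slide. The genes were picked from many, so the values only describe these arrays.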

How the data were processed

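Total RNA (50 ng) was labelled with Cy3 and read on 8 single-colour Agilent arrays, 1 for each group. The deposited scanner tables hold intensity, background-subtracted per the file headers and not scaled between arrays, from Agilent Feature Extraction 10.7.3.1 (the submitters' processing notes name 9.1 and limma). The deposited value table holds log2 values normalized between arrays by the authors, with column medians of 6.36 to 6.40. It is not centred on 0, and its background step is not given in the sources used here.

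Control and outlier spots were dropped, repeated spots averaged, and each array divided by its 75th percentile. Each gene takes the value of its brightest probe by mean level. The floor at dim levels also enters the call. Pairs of arrays got no p-value. limma 3.58.1 (R 4.3.3) fitted gate and added factor to the 4 sorted arrays with Benjamini-Hochberg adjustment over 26483 genes. It was also run on simulated data with independent errors and no set difference between the gate effects of the treatments. No conclusion is drawn from that run. The number of arrays limits precision. Named are all ligands, up to 4 called genes of each pathway list and pair by size, the 3 genes most like each ligand, and markers fixed by list. Members and lists were chosen with earlier results of these data known. Alternatives were median and quantile scaling, normexp (offset 50), the authors' values, 2 stricter filters, no filter, all probes, a larger size and no floor. The receptor filter and the setting with no floor were chosen after seeing the data.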

Additional observations from a re-analysis of the deposited data

Results flagged for a closer look

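Fgf15 moved in opposite directions between the gates of the 2 treatments. The RAX-positive over RAX-negative difference was -1.3101 log2 after activin and 1.359 after SAG. Its levels were 1.41 in RAX-positive and 2.72 in RAX-negative cells after activin, and -3.54 and -4.90 in the same order after SAG. The difference between the treatments was not tested, since each value rests on 1 array a group. With normexp background correction the values were -1.09 and 0.20, and with a size of at least 1.5 neither was called.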

How the results depend on the processing

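The limma fit of gate and added factor compares RAX-positive with RAX-negative cells within each treatment. With 1 array a group no further pairing could be fitted. Of 82 calls of a ligand in a pair of arrays, 0 reversed under median scaling, quantile scaling, normexp, the authors' values or the mean of all probes. The call stayed for 79, 80, 66 of 79, 70 and 80 in that order. Changes of filter, size or floor leave the sign by construction: 63 calls were left at a size of 1.5, 61 with both arrays well above background, 71 with the brighter array above the 95th percentile of receptor genes, and 82 with no filter or no floor. At a size of 1.5 the counts of called ligands were 3 for the gate after SAG, 3 for activin over SAG in RAX-positive cells, 3 for RAX-negative cells after activin over the Wi control, 5 for eye over diencephalon/hypothalamus and 2 for RAX-positive cells after SAG over diencephalon/hypothalamus. With both arrays well above background they were 4 for activin over SAG in RAX-positive cells, 5 for RAX-positive cells after SAG over the Wi control, 4 for eye over cortex and 5 for eye over diencephalon/hypothalamus, the last also 5 with normexp. In limma the gate called 654 genes with median scaling, 624 with normexp and 67 with an intensity trend, and the added factor 1303, 2815 and 514, against 0 as reported and 0 in the 5 other settings. The prior degrees of freedom were 2.25 as reported, 27.6 with normexp, 5.1 with the trend and infinite with median scaling. With median scaling every ligand had the same standard error (0.65), so its p-value there followed the size of the difference alone. The cause of the changed counts was not tested. Weak signal limits Fgf3, Fgf17 and Fgf8 probe A_55_P2101506 in every pair, and Fgf4 in RAX-positive cells after activin.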
